A study of Mus musculus with 20 samples.

Results

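Forkhead (Fox) genes encode transcription factors that share a winged DNA-binding domain. The 9 genes described here were Foxa1, Foxa2, Foxc1, Foxc2, Foxd1, Foxd3, Foxf1, Foxf2 and Foxl2, chosen by name as forkhead regulators of germ layer and organ fates, out of 21938 protein-coding genes annotated on 21 mouse chromosomes. Foxa1 and Foxa2 were placed with the endoderm, Foxd3 with the neural lineage and the other 6 genes with the mesoderm.

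The study reprogrammed mouse embryonic fibroblasts (MEFs) toward pluripotency with Oct4, Sox2, Klf4 and c-Myc (OSKM) and asked what the histone demethylase JMJD3 does in that process. Of its 20 samples, 14 with a ChIP-seq peak list were used, and every group had 1 library, so no difference between groups has a replicate check. H3K27me3 was mapped in 10 libraries: MEFs at day 0 that were wild type (WT, Jmjd3+/+, labelled C57BL/6J-OG2) or knockout (KO, Jmjd3-/-, labelled C57Bl6J), and cells of both genotypes at day 5 and day 10 of OSKM that overexpressed FLAG alone or Jmjd3. KLF4 was mapped in day 5 WT cells given either vector, and FLAG-JMJD3 was mapped at day 5 in WT cells with OSKM or with low KLF4 (OSlowKM). All MEFs were at low passage and all reprogramming medium contained vitamin C, which supports the activity of demethylases of this class. Each genotype was 1 MEF line according to the series design, and peak lists cannot show whether Jmjd3 was absent in the KO line or which cell types were present. The labelled strain differs with the genotype, whereas the study describes its WT and KO MEFs as coming from littermates that lack the reporter transgene, and which of these holds for the libraries was not settled here. If the labels hold, strain and genotype cannot be told apart. The labels call the OSKM delivery lentiviral, while the treatment protocol describes retrovirus.

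In fibroblasts, regulators of other lineages are commonly held silent by Polycomb repressive complex 2, which lays down a trimethyl mark on histone H3 (H3K27me3). JMJD3 removes that mark, and KLF4 is a zinc finger factor that binds GC-rich DNA. FOXA proteins are known as pioneer factors that open closed chromatin in the gut endoderm, and several Fox genes lie in clusters that arose by duplication.

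A gene was counted as marked when an H3K27me3 peak, an interval of 1000 bp, lay within 5 kb of a transcription start site (TSS). All 9 genes were marked in both MEF lists and in all 4 day 5 lists, against 14.6% of protein-coding genes in WT MEFs, 10.3% in KO MEFs, 14.7% and 11.0% in day 5 WT cells with FLAG and with JMJD3, and 13.7% and 13.0% in the matching day 5 KO lists. At day 10 the numbers were 8 genes in WT cells with FLAG (background 12.1%), 8 in WT cells with JMJD3 (8.26%), 7 in KO cells with FLAG (12.8%) and 8 in KO cells with JMJD3 (11.7%). The missing genes at day 10 were Foxd1, which had no peak in any of the 4 lists, and Foxf2, which had none in KO cells with FLAG. The other 7 genes were marked in all 10 lists, a pattern shared by 1026 protein-coding genes (4.68%). These counts depend on the threshold and the distance: at a score of at least 20 none of the 9 genes was left in day 10 WT cells with JMJD3 (1.66% of all genes) and 3 in KO MEFs (2.99%), and within 1 kb of the TSS 2 were left in each of these lists (6.23% and 6.82% of all genes).

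The genes were compared by the score that the authors' peak caller gave each peak, expressed as the percentile of the gene's best peak within its own list (100 is the top of the list). The median over the marked genes lay between 57.4 in KO MEFs and 83.2 in day 10 WT cells with FLAG, while the median over all marked genes lay between 61 and 69.6. In KO MEFs alone the 9 genes' median (57.4) was below that of all genes (63.6). The median over the marked genes among 35 other forkhead genes was above that of the 9 genes in 9 of 10 lists, at 80.5 against 57.4 in KO MEFs and 86.8 against 77.7 in WT MEFs, and below it only in day 10 KO cells with JMJD3, at 80.9 against 81.8. Between 44.4% of the marked genes (KO MEFs and day 5 KO cells with FLAG) and 88.9% (WT MEFs) carried more than 1 peak. Of all marked protein-coding genes 10.1 to 14.9% did so. The best of several peaks is a maximum, so its percentile tends to be higher where a gene has more peaks.

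**Figure D1:**
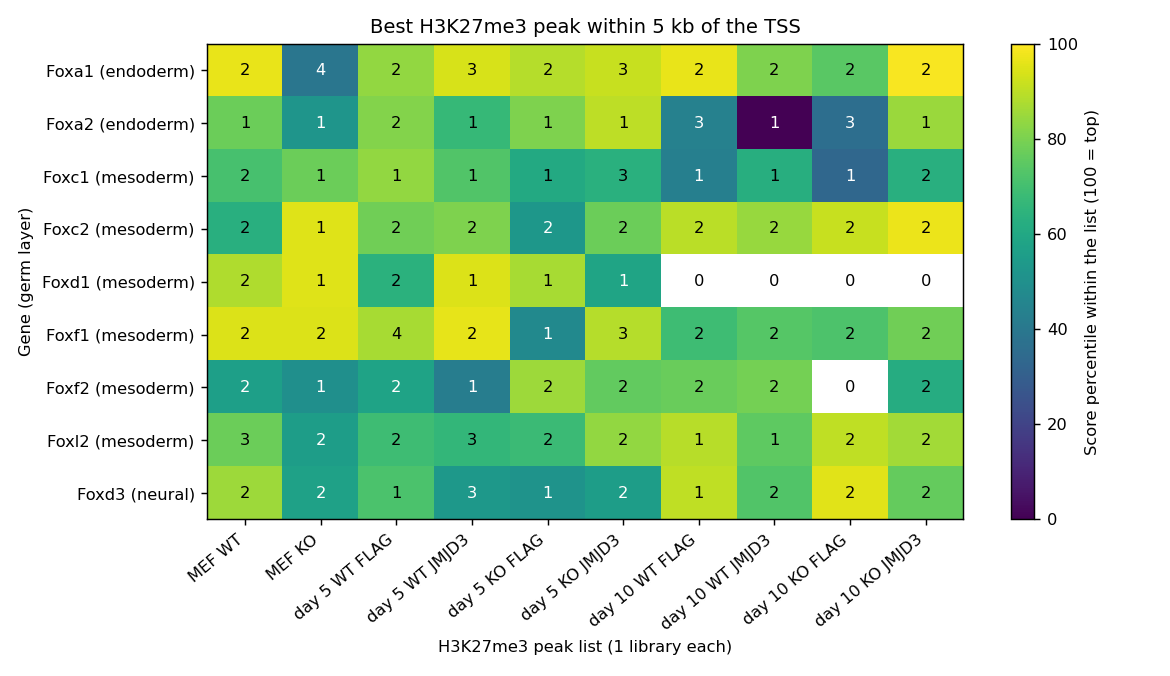
Score percentile of the best H3K27me3 peak within 5 kb of the TSS for each gene (rows) and list (columns, 1 library each), with the number of peaks written in each cell and white where there was none. Foxd1 is white in all 4 day 10 lists and Foxf2 in day 10 KO cells with FLAG, and the darkest cell is Foxa2 in day 10 WT cells with JMJD3, at 0.345.

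The 2 endoderm genes encode FOXA factors that act early in gut, liver and lung development. Foxa1 (chr12:57540628-57546916, minus strand, GRCm38, the build that the files call mm10) had 2 to 4 peaks in every list. Its best peak stood at percentile 96.7 in WT MEFs and at 39.2 in MEFs lacking Jmjd3. At day 5 it stood at 83.7 and 93.8 in WT cells with FLAG and with JMJD3, and at 88.7 and 91.5 in KO cells. At day 10 it stood at 96.5 and 80.7 in WT cells and at 74.3 and 99.2 in KO cells. KO MEFs, with 4 peaks of low rank, were the lowest of the 10 lists for Foxa1, and day 10 KO cells with JMJD3 were the highest, where its best peak was number 38 of 4878. No peak of Foxa1 covered the TSS used, the start of its basic transcript at 57546121, and 12 were centred upstream of it and 12 downstream. The outer end of the annotated gene, at 57546916, was covered by 2 peaks, both with JMJD3 at day 5, 1 in WT and 1 in KO cells.

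Foxa2 (chr2:148042877-148046969, minus strand) had 1 to 3 peaks in every list and was the gene whose marked interval most often sat on the TSS itself, in 5 of 10 lists. In MEFs its best peak stood at 77.7 for WT and 52.1 for KO. At day 5 the values were 81.3 with FLAG and 66.9 with JMJD3 in WT cells, and 80.7 and 90 in KO cells. At day 10 they were 43.8 and 0.345 in WT cells and 36.2 and 85.1 in KO cells. Its single peak in day 10 WT cells with JMJD3 ranked 3036 of 3045, at the bottom of the shortest list, so a slightly stricter threshold would have left Foxa2 unmarked there. In day 10 KO cells with JMJD3 Foxa2 stood at rank 726 of 4878, and its highest percentile of the 10 lists was the 90 of day 5 KO cells with JMJD3.

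The mesoderm genes Foxc1 and Foxc2 act in somites, vessels and, for Foxc1, the eye. Foxc1 (chr13:31806633-31812476, plus strand) had its best peak upstream in all 10 lists, with the centre between -4.2 and -3.21 kb from the TSS, and none within 1 kb. That peak stood at 70.8 in WT and 77.6 in KO MEFs. At day 5 it stood at 83.8 and 72.7 in WT cells with FLAG and with JMJD3, and at 60.6 and 63.3 in KO cells. At day 10 it stood at 43 and 62.5 in WT cells and at 33.4 and 63 in KO cells. Both day 10 FLAG values were below all other values for Foxc1. Foxc2 (chr8:121116171-121118895, plus strand) was flanked by a peak on each side in 9 of 10 lists, 1 upstream and 1 downstream of the TSS, with only the upstream peak in KO MEFs. Its best percentile ranged from 52.9 in day 5 KO cells with FLAG to 97.1 in day 10 KO cells with JMJD3, with a median of 82.5, and all 4 day 10 values, from 84.5 to 97.1, were above all 4 day 5 values, from 52.9 to 80.5.

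Foxf1 and Foxf2 are expressed in the mesenchyme around gut, lung and palate. Foxf1 (chr8:121084386-121088144, plus strand) lies 31.8 kb from Foxc2, and Foxl1, another forkhead gene marked in all 10 lists, lies 11.8 kb from Foxc2. Foxf1 had 1 to 4 peaks, most often a pair near -3 kb and near the outer edge of the downstream window, and its best percentile ranged from 47.3 in day 5 KO cells with FLAG to 96.3 in day 5 WT cells with JMJD3, with a median of 82.6. Foxf2 (chr13:31625816-31631403, plus strand) lies 181 kb from Foxc1, and Foxq1, 69.7 kb from Foxf2, was also marked in all 10 lists. Foxf2 had the lowest median of the 9 genes, 61.9, over the 9 lists in which it was marked, and in 2 of these it had a single peak whose overlap with the 5 kb window was only partial. In day 10 KO cells with FLAG its nearest peak lay 5.75 kb from the TSS, just outside the distance used.

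Foxl2 (chr9:98955288-98958543, plus strand), a regulator of ovarian granulosa cells, had 1 to 3 peaks and percentiles from 55.8 in KO MEFs to 90.5 in day 10 KO cells with FLAG. The neural gene Foxd3 (chr4:99656299-99658622, plus strand) acts in the neural crest and is also expressed in pluripotent cells. Its best peak stood at 85.3 in WT and 57.4 in KO MEFs. At day 5 it stood at 71.5 and 53.5 in WT cells with FLAG and with JMJD3, and at 51.4 and 55.7 in KO cells. At day 10 it stood at 90.4 and 72.7 in WT cells and at 95.7 and 76.3 in KO cells. All 4 day 10 values of Foxd3 were above all 4 day 5 values. In day 5 WT cells with FLAG and in both day 5 KO lists, a peak over the KLF4 site described below lay just outside the 5 kb and was not counted. A peak there was counted in WT MEFs (centre -5.49 kb, the best peak of that list) and in day 10 KO cells with FLAG (-5.39 kb).

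Foxd1 (chr13:98354242-98359305, plus strand), a gene of the kidney stroma and of the ventral forebrain, was the only one of the 9 marked in all 6 MEF and day 5 lists and in none of the 4 day 10 lists. Of the 1523 protein-coding genes marked in all 6 early lists, 19 had no peak in the 4 day 10 lists (1.25%). The best Foxd1 peak was centred between -1.4 and -0.912 kb from the TSS in all 6 early lists. It stood at 87.9 in WT and 95 in KO MEFs, at 63.7 and 94.7 in day 5 WT cells with FLAG and with JMJD3, and at 86.9 and 58.4 in the same order in day 5 KO cells. At day 10 the nearest peak lay 11.4 kb away in WT cells with FLAG and 13.2 kb away in KO cells with FLAG. With JMJD3 the nearest peak lay 1545 kb away in WT cells and 341 kb away in KO cells. A peak centred 12.4 to 13.4 kb downstream of the Foxd1 TSS was listed in MEFs of both genotypes and in every day 5 list, and at day 10 a peak centred 11.9 or 13.7 kb downstream was listed with FLAG in both genotypes, while neither day 10 list with JMJD3 had any peak within 50 kb.

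**Figure D2:**
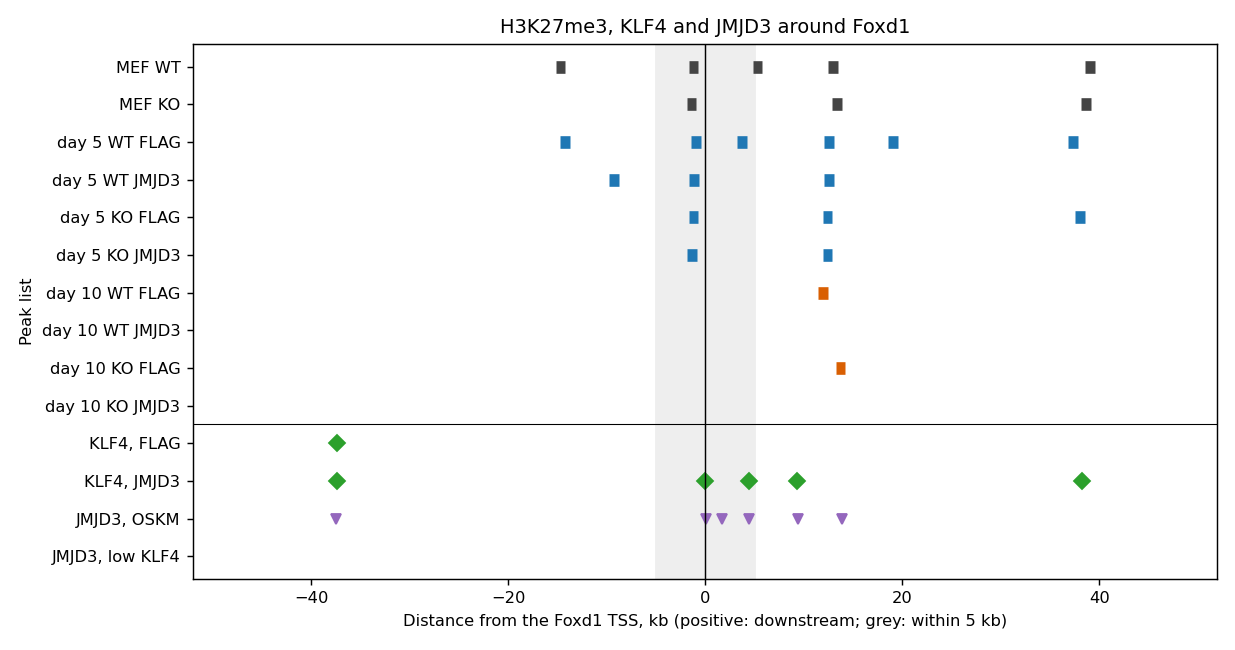
H3K27me3 peaks (bars, drawn to scale), KLF4 peaks (diamonds, at their centres) and JMJD3 positions (triangles) within 50 kb of the Foxd1 TSS, as distance from the TSS in kb, with 1 library per row. The bars left of the TSS inside the grey 5 kb window are present in all 6 upper rows and absent in the 4 day 10 rows, and the KLF4 row with JMJD3 holds 5 diamonds against 1 with FLAG.

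Of the 9 genes, Foxd1 had the most KLF4 peaks in the list with JMJD3 and the most JMJD3 positions in the list with OSKM. In the KLF4 list with FLAG it was level with Foxa2, Foxd3 and Foxl2 at 1 peak, and with low KLF4 only Foxc1 had a JMJD3 position. Within 50 kb of its TSS the day 5 KLF4 list held 1 peak with FLAG and 5 with JMJD3. The shared peak lay 37.4 kb upstream, on the untranslated region of Btf3 and an exon of the lncRNA Gm9828. The other 4, listed with JMJD3 only, were centred 0.009, 4.35, 9.31 and 38.2 kb downstream of the Foxd1 TSS, the former pair on its untranslated regions and the latter pair between genes. Of all protein-coding genes, 225 (1.03%) had at least 4 more KLF4 peaks within 50 kb with JMJD3 than with FLAG, and the KLF4 list with JMJD3 was longer, 14391 peaks against 10655. JMJD3 itself had 6 positions within 50 kb of Foxd1 with OSKM, at -37.5, 0.15, 1.73, 4.44, 9.41 and 13.9 kb, and none with low KLF4, in a list of 2284 positions against 14067. The JMJD3 positions nearest to the KLF4 peaks at the TSS, at 4.35 kb and at 9.31 kb lay 141, 91 and 102 bp from the KLF4 midpoints, and the one at the shared upstream peak lay 59 bp away. The KLF4 peak at 38.2 kb had no JMJD3 position within 24267 bp, and it overlapped an H3K27me3 peak in KO MEFs and in day 5 KO cells with FLAG. A KLF4 peak within 5 kb with JMJD3 only, with a JMJD3 position there with OSKM and none with low KLF4, was found at 723 genes (3.30%). Of these, 27 were marked in all 6 early lists, and Foxd1 was the only 1 of the 27 with no peak in any day 10 list. Whether this binding and the absent mark at day 10 are linked was not tested.

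The genomic sequences of the KLF4 peaks near Foxd1 that appeared with JMJD3 are shown here for the parts outside the transcribed exons, from the plus strand of GRCm38.p6. Capitals mark a match to the KLF motif GGGNGTGG or to the octamer motif ATGNAAAT, searched on both strands, where N is any base; the first is a short form of the KLF4 recognition sequence and the second of the Oct4 one. The first sequence, chr13:98354082-98354241, ends at the base before the Foxd1 TSS, the second is chr13:98363464-98363646 and the third is chr13:98392309-98392520.
Foxd1 start site: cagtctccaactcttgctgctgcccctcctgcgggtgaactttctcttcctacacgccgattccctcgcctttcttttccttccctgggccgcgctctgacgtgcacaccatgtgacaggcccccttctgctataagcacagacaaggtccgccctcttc
Foxd1 +9.3 kb: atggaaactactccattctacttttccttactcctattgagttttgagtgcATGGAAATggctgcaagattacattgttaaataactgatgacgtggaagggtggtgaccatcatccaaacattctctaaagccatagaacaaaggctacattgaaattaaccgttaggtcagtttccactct
Foxd1 +38 kb: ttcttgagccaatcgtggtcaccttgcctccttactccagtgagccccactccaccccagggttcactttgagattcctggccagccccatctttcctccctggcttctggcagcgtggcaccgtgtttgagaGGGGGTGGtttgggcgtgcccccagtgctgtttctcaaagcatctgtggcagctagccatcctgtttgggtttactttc
The stretch upstream of the TSS has neither motif, although the 200 bp window around the centre of that peak, which reaches into the first exon, has 1 KLF match. The sequence at +9.3 kb has 1 octamer match and no KLF match, and the one at +38 kb has 1 KLF match, on the plus strand.

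KLF4 peaks within 50 kb of the TSS were listed for 4 of the 9 genes with FLAG (background 53.9%) and for the same 4 genes, Foxa2, Foxd1, Foxl2 and Foxd3, with JMJD3 (62.2%). JMJD3 positions with OSKM lay within 50 kb of 4 genes, Foxa2, Foxc1, Foxd1 and Foxl2 (48.9%), and with low KLF4 of Foxc1 alone (11.2%). Foxa1, Foxc2, Foxf1 and Foxf2 had no KLF4 peak and no JMJD3 position within 50 kb in any of the 4 lists. Within 5 kb of the TSS, KLF4 peaks were listed for none of the 9 genes with FLAG (28.0%) and for Foxd1 with JMJD3 (37.1%), and JMJD3 positions for Foxc1 and Foxd1 with OSKM (21.0%) and for Foxc1 with low KLF4 (3.66%).

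Foxc1 had JMJD3 without KLF4. With OSKM, JMJD3 positions lay at -34.4, 1.34 and 4.05 kb from its TSS, the latter pair on its coding sequence and its untranslated region, and with low KLF4 a position lay at 2.09 kb, on the coding sequence. No KLF4 peak lay within 100 kb in either list. The coding position with OSKM and the position with low KLF4 were 751 bp apart and both fell under an H3K27me3 peak of day 10 KO cells with JMJD3 and under none of the other 9 lists. The 200 bp around each, chr13:31807874-31808073 and chr13:31808625-31808824, are shown because they are sites of JMJD3 with no KLF4 peak nearby. Neither holds the KLF or the octamer motif, so neither has capitals.
Foxc1 OSKM: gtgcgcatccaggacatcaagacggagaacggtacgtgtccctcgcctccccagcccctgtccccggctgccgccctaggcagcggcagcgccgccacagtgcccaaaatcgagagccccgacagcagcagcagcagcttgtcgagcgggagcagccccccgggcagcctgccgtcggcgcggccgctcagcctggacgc
Foxc1 low KLF4: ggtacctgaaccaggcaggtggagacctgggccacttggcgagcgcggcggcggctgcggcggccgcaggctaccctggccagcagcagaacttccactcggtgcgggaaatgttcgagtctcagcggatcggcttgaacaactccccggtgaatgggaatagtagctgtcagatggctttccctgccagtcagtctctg
At Foxd3 the reverse held. A KLF4 peak was listed between genes 5.48 kb upstream with FLAG and 5.53 kb upstream with JMJD3, and no JMJD3 position lay within 50 kb. This KLF4 peak overlapped an H3K27me3 peak in 6 of the 10 lists, namely WT MEFs, day 5 WT cells with FLAG, both day 5 KO lists, day 10 WT cells with JMJD3 and day 10 KO cells with FLAG. It was the only KLF4 peak near the 9 genes that lay under H3K27me3 in more than 2 lists. At Foxa2 a KLF4 peak 33.1 kb upstream was listed with and without JMJD3, and a JMJD3 position with OSKM lay 622 bp from its midpoint. The Foxd3 sequence below is chr4:99650686-99650953 and the Foxa2 sequence chr2:148079990-148080195, both as listed with FLAG and read from the plus strand, and neither holds an exact KLF or octamer match.
Foxd3 -5.5 kb: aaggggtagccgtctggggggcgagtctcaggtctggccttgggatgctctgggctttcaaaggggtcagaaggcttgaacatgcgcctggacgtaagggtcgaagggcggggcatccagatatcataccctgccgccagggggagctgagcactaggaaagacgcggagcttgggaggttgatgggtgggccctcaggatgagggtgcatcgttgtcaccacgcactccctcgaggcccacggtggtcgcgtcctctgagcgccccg
Foxa2 -33 kb: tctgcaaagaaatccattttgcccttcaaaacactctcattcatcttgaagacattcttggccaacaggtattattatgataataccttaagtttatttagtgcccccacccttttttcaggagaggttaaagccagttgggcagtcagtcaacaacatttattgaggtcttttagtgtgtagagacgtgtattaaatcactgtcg
Foxl2 had a KLF4 peak 31.1 kb downstream, on the untranslated region of Faim, in both lists, a further one at 24.7 kb with JMJD3 only, and a JMJD3 position at -47.5 kb, 72198 bp from the nearest KLF4 midpoint.

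Over the sites near the 9 genes, the KLF motif was found in 200 bp windows at 1 of 4 KLF4 peaks with FLAG, 3 of 9 with JMJD3, 4 of 11 JMJD3 positions with OSKM and 0 of 1 with low KLF4. The shares over all windows of the same lists were 35.5%, 33.6%, 14.6% and 9.46%. The octamer was found at 0, 1, 2 and 0 of these sites, with shares of 3.58%, 3.18%, 11.6% and 11.6% over all windows. No site near the 9 genes held the SOX motif ACAATGG, the AP-1 motif TGANTCA or the forkhead motif TGTTTAC. Over all windows of the 4 lists the shares were also low, at 3.7 to 8.17% for SOX, 5.44 to 17.3% for AP-1 and 1.6 to 2.67% for forkhead. With so few sites these counts describe the sites and do not compare them with the lists. In the RefSeq promoter table (GRCm38.p6, 300 bases around each start), 7 of the 9 genes were matched by 9 promoters; Foxc2 and Foxf1 were not. Their median GC content was 64% against 52.7% over all 32851 promoters, and their median ratio of observed to expected CpG was 0.767 against 0.384. The KLF motif was in 4 of the 9 promoters (2 of the 3 promoters of Foxa2, and those of Foxl2 and Foxd3), against 17.6% of all promoters, and the Foxd1 promoter held none.

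The peaks of these genes lay beside the TSS more than on it. Of 156 peaks within 5 kb summed over genes and lists, 9 covered a TSS (5.77%, 95% Wilson interval 3.06 to 10.6). The share was 16% (11.9 to 21.2) at the 35 other forkhead genes and 34.1% (33.6 to 34.6) at all protein-coding genes. These shares count any TSS of a gene, and genes differ in their number of TSSs. With the gene's 5′ end as the only TSS they were 5.81% at the 9 genes and 27.8% at all protein-coding genes. They are also shares of peaks, and 68.2% of the marked pairs of gene and list had more than 1 peak here, against 12.9% for all genes. Of the 85 pairs of a gene and a list with a peak, 38 had a peak within 1 kb of the TSS (44.7%, 34.6 to 55.3), against 77.3% (70.5 to 82.9) for the other forkhead genes and 76% (75.5 to 76.5) for all genes. The intervals cover counting error only, and the lists repeat the same loci, so the 156 peaks are not independent. Foxa2 held 6 of the 9 covering peaks, and Foxf2, Foxl2 and Foxd3 held 1 each. Over all lists 72 of the 156 peaks (46.2%) were centred upstream of the TSS.

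**Figure D3:**
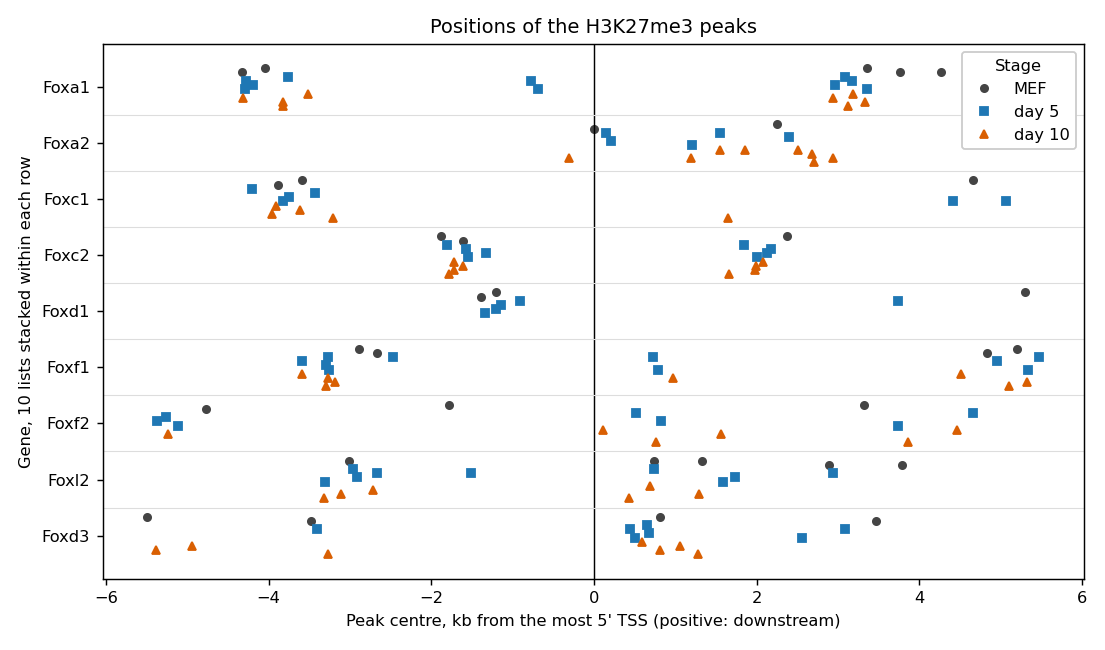
Centre of every H3K27me3 peak within 5 kb of each gene's TSS, in kb from the most 5′ TSS (positive is downstream), with the 10 lists stacked within each row and the stage given by colour and shape. Foxc1, Foxc2 and Foxd1 have tight upstream columns near -4, -1.6 and -1.2 kb, and Foxa2 has symbols close to 0 on both sides.

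Exogenous JMJD3 against FLAG was compared in 4 pairs. No gene of the 9 marked with FLAG was unmarked with JMJD3 in any pair, where the background was 31.8% in WT and 20.5% in KO cells of day 5 and 41.3% and 25.1% in those of day 10. Foxd1 could not be lost at day 10 since it was already unmarked with FLAG, and Foxf2 was marked with JMJD3 but not with FLAG in day 10 KO cells. Counted by single peaks, 11 of 18 FLAG peaks of these genes had an overlapping JMJD3 peak in day 5 WT cells (61.1%, 38.6 to 79.7), where 63.3% of all FLAG peaks near a TSS did. With an overlap of at least 50% of the FLAG peak required, 7 of the 18 did (38.9%, all peaks 52.9%). In day 5 KO cells 12 of 13 did (92.3%, 66.7 to 98.6, all peaks 75.7%), in day 10 WT cells 9 of 14 (64.3%, 38.8 to 83.7, all peaks 52.2%) and in day 10 KO cells 11 of 14 (78.6%, 52.4 to 92.4, all peaks 69.6%). The share over all peaks lay inside the interval of the 9 genes in each pair. All FLAG peaks of Foxa1, Foxc1 and Foxc2 were overlapped in all 4 pairs, while neither Foxf2 peak was overlapped in day 5 or day 10 WT cells.

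The best peak stood at a higher percentile with JMJD3 at 4 of 9 genes in day 5 WT cells (background 36.0%), at 7 of 9 in day 5 KO cells (55.1%), at 3 of 8 in day 10 WT cells (34.8%) and at 5 of 7 in day 10 KO cells (45.9%). A percentile depends on the length of its list, and with all lists reduced by score to the length of the shortest the counts were 5 of 9 (46.9%), 5 of 9 (49.3%), 4 of 8 (50.4%) and 3 of 5 (48.0%). Foxf1 was higher with JMJD3 in all 4 pairs, from 86.8 to 96.3 and from 47.3 to 88.7 at day 5 and from 69 to 73.7 and from 72 to 78.5 at day 10, in WT and KO cells in turn. The share of all genes that were higher in all 4 pairs was not computed. Among genes marked in both lists of a pair, the largest difference in WT cells was -43.5 points at Foxa2 at day 10, and in KO cells 49 points, also at Foxa2 at day 10. The WT difference came from rank 2884 of 5131 with FLAG and rank 3036 of 3045 with JMJD3, and at equal list length it was -4.99 points, while Foxa2 was then unmarked in day 10 KO cells with FLAG.

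KO against WT cells were compared in 5 pairs. Foxf2 in day 10 FLAG cells was the only gene marked in WT and not in KO cells, where the background was 18.4%. With all lists reduced by score to the length of the shortest, Foxa2 and Foxc1 were also unmarked there, which made 3 genes (background 21.9%). None was lost in MEFs (35.6%), in day 5 FLAG cells (17.9%) or in the day 5 (9.16%) and day 10 (12.0%) cells with JMJD3. The best peak stood higher in KO cells at 3 of 9 genes in MEFs (27.3%), at 3 of 9 in day 5 FLAG cells (39.9%), at 4 of 7 in day 10 FLAG cells (52.2%), at 4 of 9 in day 5 cells with JMJD3 (66.2%) and at 7 of 8 in day 10 cells with JMJD3 (68.0%). At equal list length the counts were 5 of 9 (49.8%), 5 of 9 (47.9%), 4 of 5 (48.9%), 3 of 9 (51.5%) and 4 of 8 (49.6%) in the same order. In MEFs the 3 genes higher in KO cells were the mesoderm genes Foxc1, Foxc2 and Foxd1, and the median percentile of the 6 mesoderm genes was 74.1 in WT and 86.1 in KO MEFs. The other 3 mesoderm genes differed by -0.343 (Foxf1), -6.81 (Foxf2) and -21.6 points (Foxl2), of which Foxf1 and Foxf2 turned to 4.29 and 31.4 at equal list length. The endoderm pair went from a median of 87.2 to 45.6 and Foxd3 from 85.3 to 57.4. The KO list was shorter, 4113 peaks against 6954.

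Over time, none of the 9 genes was unmarked between MEFs and day 5 FLAG cells, in WT (background 22.2%) or KO cells (15.2%). Between day 5 and day 10 Foxd1 alone was unmarked in the WT series with FLAG (28.5%), the WT series with JMJD3 (38.6%) and the KO series with JMJD3 (25.1%), while Foxd1 and Foxf2 both were in the KO series with FLAG (22.6%). At equal list length Foxa2 and Foxc1 joined them in that series, which made 4 genes (23.5%). Of the genes marked at both times, Foxc2, Foxl2 and Foxd3 stood at a higher percentile at day 10 than at day 5 in all 4 series, also at equal list length. The share of all protein-coding genes that did so in all 4 series was not computed, so these genes are not set apart from others by it. The number of genes higher at day 10 was 5 of 8 in WT cells with FLAG (38.8%), 4 of 7 in KO cells with FLAG (49.4%), 4 of 8 in WT cells with JMJD3 (33.2%) and 4 of 8 in KO cells with JMJD3 (36.3%). From MEFs to day 5 with FLAG it was 4 of 9 in WT (45.4%) and 4 of 9 in KO cells (60.8%). At equal list length the counts from day 5 to day 10 were 5 of 8 (50.1%), 4 of 5 (51.3%), 5 of 8 (52.2%) and 5 of 8 (49.6%) in the same order. Those from MEFs to day 5 were then 4 of 9 in WT (48.1%) and 4 of 9 in KO cells (50.5%). The comparisons by vector, genotype and time use the same 10 lists and are not independent of each other.

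By germ layer, the endoderm genes had 39 peaks over the 20 pairs of gene and list (1.95 per gene and list), the mesoderm genes 99 over 60 pairs (1.65) and the neural gene 18 over 10 (1.8). All 20 endoderm and all 10 neural pairs were marked, and 55 of the 60 mesoderm pairs (91.7%), the 5 gaps being those of Foxd1 and Foxf2 at day 10. This order depends on the placing of Foxd1: counted with Foxd3 as neural, 49 of 50 mesoderm pairs (98%) and 16 of 20 neural pairs (80%) were marked. The median percentile ranged from 40.5 to 92.2 across lists in the endoderm pair, from 64.3 to 86.1 in the mesoderm genes and from 51.4 to 95.7 for Foxd3. With 2, 6 and 1 genes, the ranges of the layers overlapped in full or in part.

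**Figure D4:**
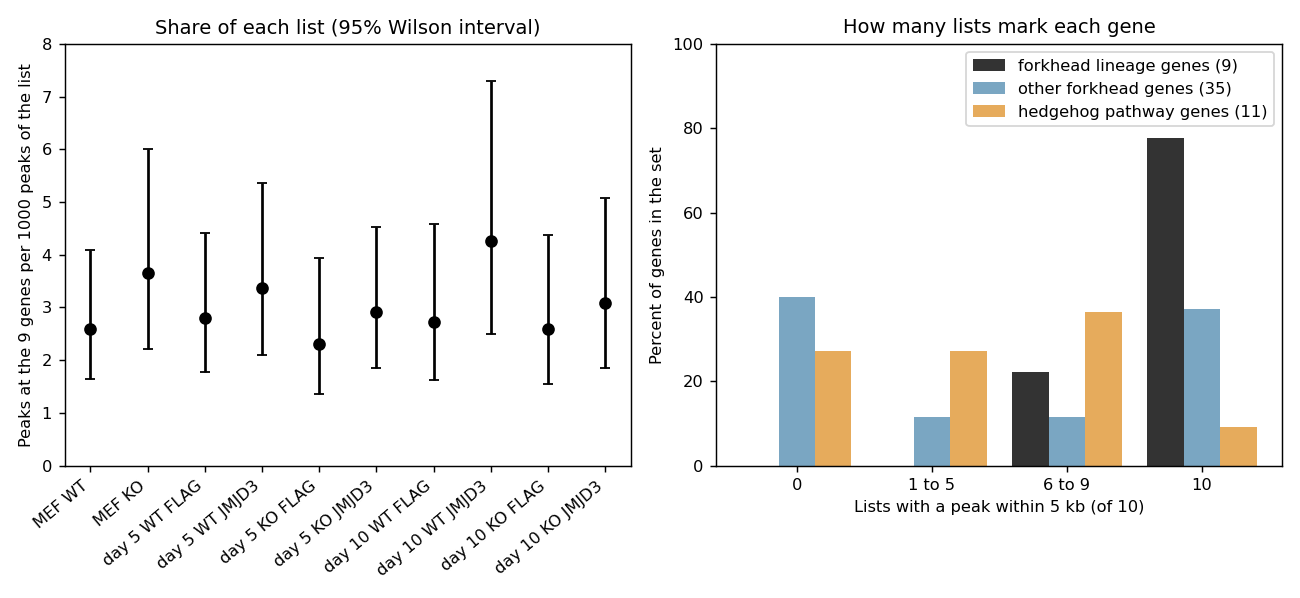
Left, H3K27me3 peaks at the 9 genes per 1000 peaks of each list with the 95% Wilson interval; right, percent of the 9 forkhead lineage genes, 35 other forkhead genes and 11 hedgehog pathway genes with a peak in 0, 1 to 5, 6 to 9 or all 10 lists. The left values run from 2.3 to 4.27 with overlapping intervals, and the 9 genes fall only in the right-hand groups.

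As a share of each list, the peaks of the 9 genes made up between 2.3 per 1000 (1.35 to 3.94) in day 5 KO cells with FLAG and 4.27 per 1000 (2.5 to 7.29) in day 10 WT cells with JMJD3, and all 10 intervals overlapped. In numbers this was 13 to 19 peaks, in lists of 3045 to 6954. The 35 other forkhead genes, listed by name, were split: 13 were marked in all 10 lists, among them Foxb1, Foxd2, Foxe1, Foxe3, Foxi2, Foxl1 and Foxq1, and 14 in none, among them Foxk1, Foxm1, Foxj3 and Foxp1. Of 11 hedgehog pathway genes, which are controlled by or control several Fox genes in the gut and somites, only the ligand gene Ihh was marked in all 10 lists and 3 were marked in none. The ligand gene Dhh had the same pattern as Foxd1, with a peak in all 6 early lists and none at day 10. At Dhh there were 4 KLF4 peaks within 50 kb in the FLAG list and 7 in the JMJD3 list, which was longer (14391 peaks against 10655).

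The genes most like each of the 9 across the 10 lists were found by the mean absolute difference of the best percentile, with an unmarked gene set to 0. They were Asic2 for Foxa1 (5.75 points), Ksr2 for Foxa2 (7.46), Evx1 for Foxc1 (10.4), Cldn34d for Foxc2 (8.33), Lrfn5 for Foxd1 (8.73), Brsk2 for Foxf1 (5.39), Nlgn1 for Foxf2 (10.4), Pde4b for Foxl2 (5.65) and Tcap for Foxd3 (7.31). Nearest to the median of the 9 genes were Sstr5 (6.2), Gsx1 (6.57) and Rfx6 (6.67). Lrfn5, nearest to Foxd1, still had a peak in 2 of the 4 day 10 lists, at percentiles 21 and 3.97.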

How the data were processed

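Peak lists of 14 libraries were used, grouped by their labels. Each group had a single library, and no test was run. By the methods of the study, reads were aligned with bowtie2 to mm10 and the authors called peaks with DFilter (H3K27me3) or MACS2 (KLF4, JMJD3); the submitters' processing notes name Bowtie2 2.2.0. Drosophila chromatin served as a spike-in for H3K27me3, but whether it entered the peak calls is not given in the sources used here, so peak numbers do not measure how much mark a cell carries. The deposited H3K27me3 lists hold a score from the authors' peak caller (6.56 to 200, scale not given), used for ranks within a list and, in alternatives, as a minimum of 20 set alike in all lists, although whether scores compare between lists is not known. The deposited KLF4 intervals and JMJD3 positions of 1 bp carry no score. Read depth was not used here, and a deeper library can give a longer list. The 4 input and 2 H3K27ac samples were not used.

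Distances ran from the nearest base of a peak to any TSS of GENCODE M21 basic transcripts (5 kb for H3K27me3, 50 kb for KLF4 and JMJD3), and positions from the peak centre to the most 5′ TSS. The 9 genes, the comparison lists of 35 forkhead and 11 hedgehog genes, the germ layers and the alternatives were chosen with earlier results of these data known. Named besides the 9 genes were forkhead or hedgehog genes within 100 kb of them or marked in all 10 lists, the nearest genes by percentile pattern, and, after their values were seen, Dhh, Ptch1 and 4 unmarked forkhead genes; Btf3, Gm9828 and Faim are named as the annotation under a site. Motifs were matched in 200 bp windows around site centres. The tools were bedtools 2.31.1, samtools 1.23.1, pysam 0.24.0, scipy 1.17.1 and numpy 2.4.6 under Python 3.11.15. The distance search returned the same 26793 pairs of gene and list as bedtools, and all 200 planted peaks and 200 planted motifs were called correctly.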

Additional observations from a re-analysis of the deposited data

Results flagged for a closer look

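Values listed here moved in opposite directions in WT and KO cells when JMJD3 was compared with FLAG. They were picked for that reason, and the share of all genes that moved in opposite directions was not computed. With 1 library per group none of these differences was tested. The number of H3K27me3 peaks summed over the 9 genes at day 5 changed by -1 in WT cells and by 6 in KO cells, and at day 10 by -1 and 1. The lists themselves differ in length, and per 1000 peaks of the list the number was higher with JMJD3 in both genotypes, at 3.36 against 2.8 (WT) and 2.91 against 2.3 (KO) at day 5 and at 4.27 against 2.73 and 3.08 against 2.6 at day 10. With all lists reduced by score to the length of the shortest it was also higher with JMJD3 in both, with 13 against 11 and 14 against 11 peaks at day 5 and 13 against 11 and 13 against 9 at day 10. The percentile of the best peak at day 5 changed by -14.4 points in WT and 9.32 in KO cells at Foxa2, by -11.1 and 2.74 at Foxc1, by 31.1 and -28.5 at Foxd1, by -2.75 and 15.9 at Foxl2, and by -18 and 4.3 at Foxd3. At day 10 it changed by -15.8 and 25 at Foxa1, by -43.5 and 49 at Foxa2, and by -5.01 and 5.61 at Foxc2. At equal list length the directions stayed opposite at Foxa2 (-15.6 and 14.3) and Foxd1 (67.9 and -65.1) at day 5 and at Foxa1 (-13.4 and 44.2) at day 10, while Foxc1, Foxl2 and Foxd3 at day 5 and Foxc2 at day 10 moved the same way in both genotypes. Foxa2 at day 10 then differed by -4.99 points in WT cells and was unmarked in KO cells with FLAG. Foxd1 at day 5 was the only gene that stood higher with JMJD3 in WT and lower in KO cells, as deposited and at equal list length. The same contrast over all genes marked in both lists had a median at day 5 of -5.3 points in WT cells and 1.81 in KO cells, and at day 10 of -6.65 and -1.36. At equal list length these medians were -1.59 and -0.238 at day 5 and 0.0328 and -0.878 at day 10, so the opposite direction at day 5 was not kept.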

How the results depend on the processing

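No fit with a replicate block was made, since each group had 1 library and the labels give no replicate numbers, and no model over the 8 libraries of day, genotype and vector was run. Of the alternative values computed for the main results, 94 kept the count within 1.5 times or the share within its interval and 45 did not. Foxd1 had a peak in the same number of lists, 6, within 1 kb, within 10 kb, among the 50% of peaks with the better scores, with all lists reduced by score to 3045 peaks and from the gene's 5′ end, and in 4 lists at a score of at least 20. Within 1 kb of the TSS the number of marked genes was 4 in WT MEFs, 2 in KO MEFs, 4 in day 5 WT cells with JMJD3, 5 in both day 5 KO lists, and 4, 2, 3 and 3 in the day 10 lists (WT with FLAG, WT with JMJD3, KO with FLAG, KO with JMJD3), and the number of peaks was 5 and 2 in MEFs, 7, 4, 5 and 5 at day 5 and 6, 2, 4 and 3 at day 10. Within 10 kb it was 23 peaks in KO MEFs and 28 in day 5 WT cells with FLAG. The better-scoring 50% of the lists held 9 peaks in KO MEFs, 10 in day 5 WT cells with JMJD3 and 8 in both day 10 FLAG lists. A score of at least 20 left 3 marked genes in KO MEFs, 5 in day 5 WT cells with JMJD3, 4 in day 5 KO cells with FLAG, and 4, 0 and 3 in day 10 WT cells with FLAG, WT cells with JMJD3 and KO cells with FLAG. Of all protein-coding genes, 6.23 to 11.8% were marked within 1 kb and 1.66 to 7.76% at a score of at least 20, by list. At equal list length the FLAG lists held 11 peaks (day 5 WT) and 9 peaks (day 10 KO), and, in an alternative chosen after seeing the data, 3 genes were marked in day 10 WT and not in KO FLAG cells (21.9% of all marked genes), and 4 in day 5 and not in day 10 KO FLAG cells (23.5%). Counting a peak as kept when within 1 kb gave 85.7% in day 10 WT cells (all peaks 55.1%), and requiring 50% overlap gave 38.9% in day 5 WT cells (52.9%) and 50% in day 10 WT cells (42.0%). At equal list length, chosen after seeing the data, the percentile with JMJD3 less that with FLAG changed sign at Foxl2 in day 5 WT cells (9.33), at Foxc1 (-5.71) and Foxd3 (-5.06) in day 5 KO cells and at Foxc2 in day 10 WT cells (2.15). KLF4 lay within 10 kb of 1 gene with FLAG (32.1% of all genes) and 2 with JMJD3 (41.6%), and the wider 50% of the FLAG peaks left 2 genes (37.2%); JMJD3 with OSKM lay within 10 kb of 2 (24.6%). Counting Foxd1 as neural gave 98% of mesoderm and 80% of neural pairs marked. With 1 mismatch the KLF motif was in 4 of 4, 8 of 9, 9 of 11 and 1 of 1 windows, against 89.6%, 89.4%, 64.5% and 54.9% of all windows. At equal list length, also chosen after seeing the data, the share of marked pairs with more than 1 peak was 43.4% for the 9 genes and 8.28% for all genes, and 8 of 1093 genes (0.732%), Foxd1 among them, had a peak in all 6 early lists and none at day 10. The cause of these changes was not tested. Peak lists without read depth cannot tell an absent peak from one below the caller's threshold.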

Other observations

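Foxf2 and Foxc1, 181 kb apart, and Foxf1 and Foxc2, 31.8 kb apart beside Foxl1, are forkhead clusters in which every gene named was marked in 9 or all 10 lists. Of all protein-coding genes 4.68% were marked in all 10. Neither of the 2 pairs had a KLF4 peak within 50 kb of its genes in either list, where 53.9% of all genes had one with FLAG and 62.2% with JMJD3. Foxq1 had 1 KLF4 peak within 50 kb with JMJD3 and 0 with FLAG. The cluster of Foxf1, Foxc2 and Foxl1 held no JMJD3 position within 50 kb either, with OSKM (48.9% of all genes had one) or with low KLF4 (11.2%). Foxd2 and Foxe3, forkhead genes outside the 9, had median percentiles of 97.5 and 93.8, each with 0 KLF4 peaks with FLAG and 1 with JMJD3 within 50 kb. Foxl1 and Foxi2, with medians of 95.6 and 94.1, showed no such difference, at 0 in both lists and 1 in both lists. The KLF4 list with JMJD3 was the longer one, with 14391 peaks against 10655. The patched gene Ptch1, a receptor of hedgehog ligands, was marked in no list and within 50 kb had 6 JMJD3 positions in the OSKM list and 1 in the low KLF4 list.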
